A study of Arabidopsis thaliana with 2 samples.

Results

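Enzyme families that conjugate small molecules to a sugar or to glutathione, the UDP-glycosyltransferases (UGT) and the glutathione transferases (GST), were described on expression arrays of Arabidopsis thaliana seedlings. Members were the genes whose symbol in the array annotation starts with UGT and a digit, or with GSTU, GSTF, GSTL, GSTT or GSTZ and a digit, and whose probe set was assigned to that gene alone. This gave 60 genes, 47 UGT and 13 GST, out of 13356 genes with a single-gene probe set, and each of the 60 had 1 probe set. The GST members comprised 11 GSTU genes, GSTF4 and GSTL3, and no GSTT or GSTZ gene carried such a symbol here. The rule took members by name and used no signal.

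The study set 1 array of the ros1-1 mutant against 1 array of the C24 wild type. The mutant carries the ros1-1 allele of ROS1, a DNA glycosylase that removes methylated cytosine from DNA, in the C24 accession, and the wild type is C24 itself. Both were whole seedlings of 15 days, kept at 22 °C on MS medium with 16 h of light and 8 h of darkness a day. No other allele or treatment is named in the labels, and the sources used here do not say how many seedlings were behind an array. The array labels could not be checked against ROS1 itself, which was not analysed here.

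UDP-glycosyltransferases move a sugar from a UDP-sugar to an acceptor, and in plants they act on flavonoids, lignin precursors, hormones and foreign compounds. Glutathione transferases couple the tripeptide glutathione to electrophilic compounds, and conjugates of both kinds are carried into the vacuole. The tau (GSTU) and phi (GSTF) classes are the large plant classes of glutathione transferases, whereas the lambda (GSTL) class has a cysteine in its active site and removes glutathione rather than adding it. Many genes of both families lie next to relatives in tandem groups, and several are known for their induction by stress, hormones or herbicides.

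Signals were linear intensities, and the ratio of a gene was log2 of its signal in ros1-1 minus log2 of its signal in C24_WT. Signals under a floor of 132, the 40th percentile of both arrays, were raised to it, and a gene was taken as measured if it reached the floor on at least 1 array. A gene with only 1 array at or above the floor has a bound in place of a ratio. With 1 array per genotype no test was possible, the values describe these 2 arrays, and a difference was counted by size alone, from 1.5-fold, or 0.58 on the log2 scale. Probe sets for the same gene, in 61 genes of the arrays, scattered by an SD of 0.19 in log2 ratio, which leaves out differences between plants and RNA preparations. A lower signal from whole seedlings can mean fewer cells of a type or less RNA per cell, and these cannot be told apart. The median signal was 213 on the ros1-1 array and 216 on the C24_WT array, and the log2 ratios of 16 spiked hybridisation controls ran from -0.25 to 0.26. The 3-prime to 5-prime signal ratio was 0.968 in ros1-1 and 0.953 in C24_WT for GAPDH and 1.21 in ros1-1 and 1.54 in C24_WT for actin. For ubiquitin (UBQ) it was highest, at 1.74 in ros1-1 and 1.84 in C24_WT. Of 23 leaf and photosynthesis markers, 2 could be named on the arrays, and they differed in direction. RCA had 17658 in ros1-1 and 15226 in C24_WT, a log2 ratio of 0.21. LHCB4.1 had 16264 in ros1-1 and 18035 in C24_WT, a log2 ratio of -0.15. The summed signal of the 3 measured root markers, of 11 listed, was 14296 in ros1-1 and 13445 in C24_WT, with a median log2 ratio of 0.33. Most of the sum was PYK10, at 13729 in ros1-1 and 13028 in C24_WT, a log2 ratio of 0.076. EXPA7 and EXPA18 had log2 ratios of 0.33 and 0.51, so all 3 were higher in ros1-1. The only measured markers of pollen and of senescence, TUA1 and SAG29, had signals of 579 and 957 in ros1-1 and 596 and 411 in C24_WT, and the seed and flower lists had 0 named genes. What part such differences have in the values below was not tested.

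Of the 60 genes, 34 were measured, 31 of them on both arrays, and 26 stayed under the floor on both. Most measured members had similar signals in the 2 genotypes. GSTU25 had the largest difference, at least 1.80-fold higher in ros1-1, and it was followed by UGT73B1, 1.52-fold lower, and UGT72B3, 1.52-fold higher. These 3 were the only measured members at least 1.5-fold different, 2 higher and 1 lower in ros1-1. Over all 7464 measured genes, 1.74% were at least 1.5-fold higher and 1.96% at least 1.5-fold lower, and counts of 2 and 1 among 34 genes are too small to set the members apart from that background. At 2-fold there were 0 members in either direction, against 0.161% higher and 0.201% lower of all measured genes. That 0 depends on the floor, since GSTU25 has only a bound. With a floor at the 25th percentile its log2 ratio was 1.05, past 2-fold.

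**Figure D1:**
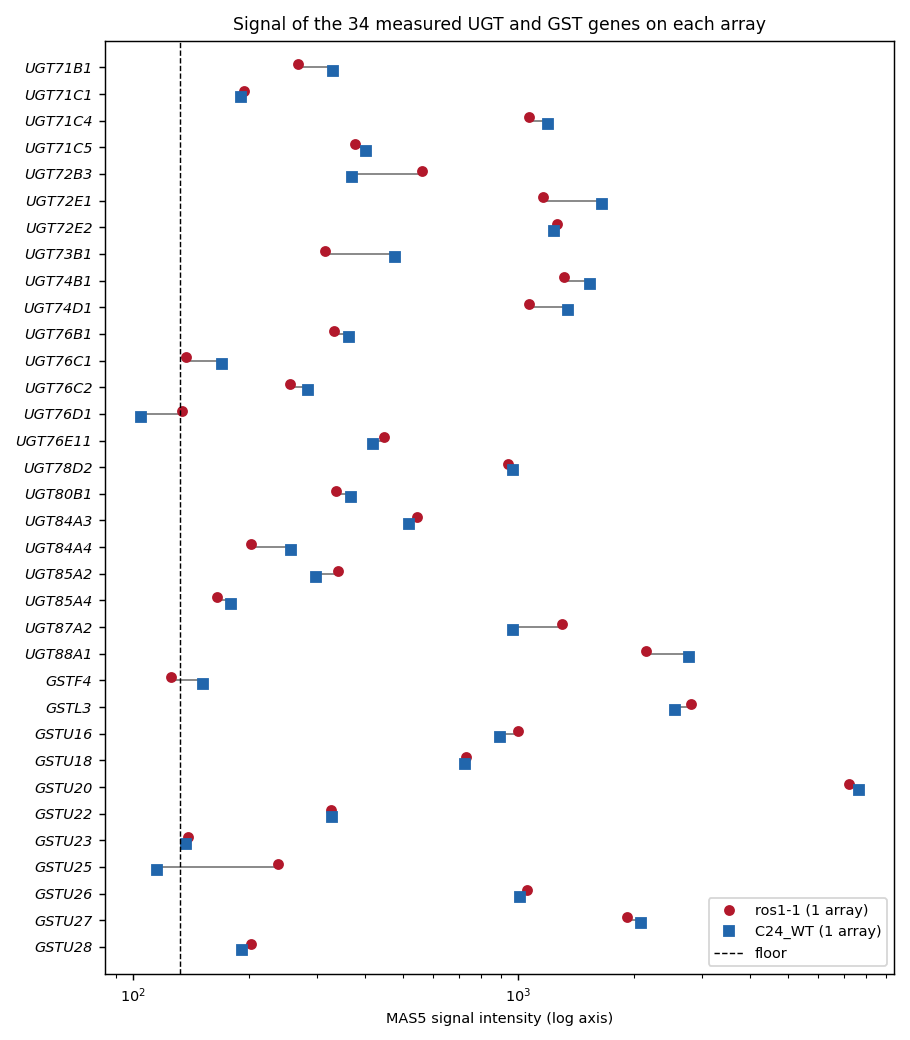
Signal intensity (log axis) of each of the 34 measured genes, with 1 circle for the ros1-1 array and 1 square for the C24_WT array, joined by a line, and the floor of 132 as a dashed line. Most pairs lie close together, and GSTU25, at 238 in ros1-1 and 115 in C24_WT, has the longest line.

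Among the UGT genes, 23 of 47 were measured, 22 of them on both arrays. Their median log2 ratio was -0.13, against -0.0051 over all measured genes, and 15 of the 23 were lower in ros1-1, or 65.2%, against 50.8% of all measured genes. At 1.3-fold, 2 UGT genes were higher (UGT72B3 and UGT87A2) and 2 lower (UGT73B1 and UGT72E1), with 6.1% and 7.72% of all measured genes past that size. Among the GST genes, 11 of 13 were measured, 9 on both arrays, with a median of 0.017. On both arrays, the log2 ratios of the 9 GST genes had an SD of 0.094, those of the 22 UGT genes an SD of 0.28, and those of all 6906 such genes an SD of 0.26. The 9 GST genes ran from -0.12 to 0.16 and the 22 UGT genes from -0.60 to 0.60, so the UGT genes spread about as widely as genes at large and these GST genes less widely. With the bounds of GSTU25 and GSTF4 included, the SD of the 11 GST genes was 0.28, so the narrow spread holds without GSTU25 only, and the contrast was not tested.

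**Figure D2:**
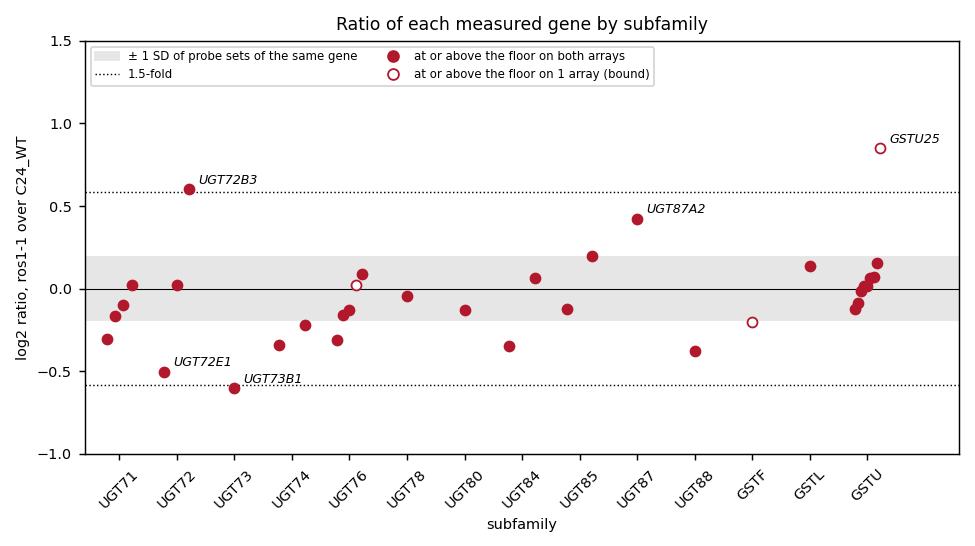
Log2 ratio of ros1-1 over C24_WT (vertical axis) for every measured gene, by subfamily. Filled circles reached the floor on both arrays and open circles on 1 (a bound), the grey band is 1 SD of probe sets of the same gene (0.19), and dotted lines mark 1.5-fold. GSTU25 and UGT72B3 lie above the upper dotted line, UGT73B1 lies below the lower one, and the other 31 genes lie between them.

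The UGT72 subfamily, whose best known members glucosylate lignin precursors, held both a higher and a lower gene. UGT72B3, a close relative of the enzyme UGT72B1 that conjugates phenolic pollutants and monolignols, had a signal of 562 in ros1-1 and 371 in C24_WT, a log2 ratio of 0.60. Its ratio ranked 114th from the top of 7464 measured genes, but it just passes the size of 1.5-fold, and with an offset instead of a floor it was 0.47, under that size. UGT72E1, which acts on coniferyl and sinapyl aldehydes, had signals of 1161 in ros1-1 and 1643 in C24_WT, a log2 ratio of -0.50. UGT72E2, which glucosylates monolignol alcohols and aldehydes, was nearly the same on both arrays, at 1258 in ros1-1 and 1240 in C24_WT, a log2 ratio of 0.021. UGT72E3, the third of this group, was under the floor in both genotypes. The subfamily median of 0.021 is therefore the value of UGT72E2, with 1 relative well above it and 1 well below. UGT72B1 itself carries the symbol GT72B1 in the annotation and is no member by name; it had 673 in ros1-1 and 738 in C24_WT, a log2 ratio of -0.13.

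In the UGT73 subfamily, 1 of 7 genes was measured. UGT73B1, a relative of the stress-induced genes UGT73B3 and UGT73B5, had 315 in ros1-1 and 479 in C24_WT, a log2 ratio of -0.60, and ranked 134th from the bottom of 7464 genes. A probe set shared by UGT73B2 and UGT73B3, which was left out because it names both, gave 629 in ros1-1 and 742 in C24_WT, a log2 ratio of -0.24. UGT73B4, UGT73B5, UGT73C1, UGT73C2, UGT73C7 and UGT73D1 did not reach the floor on either array. UGT73B1 just passes the size of 1.5-fold: under each of the 3 rescalings tried (centring on the median, quantile normalization and removal of the intensity trend) its log2 ratio lay between -0.583 and -0.581, just short of that size (0.585).

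The UGT74 genes serve glucosinolate, auxin and salicylate metabolism. UGT74B1, which adds glucose to the thiohydroximate in glucosinolate synthesis, had 1316 in ros1-1 and 1531 in C24_WT, a log2 ratio of -0.22. UGT74D1, which glucosylates auxins, had 1062 in ros1-1 and 1348 in C24_WT, a log2 ratio of -0.34. Both were lower in ros1-1, by less than 1.3-fold, and UGT74B1 stood 0.95 SDs from 0 among genes of similar signal. Of all measured genes, 59.8% lay within the probe set scatter of 0.19, so log2 ratios beyond it were common on these arrays. UGT74F1, a salicylic acid glucosyltransferase, had deposited signals of 12.8 in ros1-1 and 8.54 in C24_WT, under the floor.

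Hormone conjugation was also represented in the UGT76 and UGT84 subfamilies. UGT76C1 and UGT76C2, adjacent genes for cytokinin N-glucosyltransferases, were both somewhat lower in ros1-1. UGT76C1 had 137 in ros1-1, close to the floor, and 170 in C24_WT, a log2 ratio of -0.31. UGT76C2 had 256 in ros1-1 and 285 in C24_WT, a log2 ratio of -0.16. UGT76B1, which glucosylates isoleucic acid and salicylic acid and tempers defence, had 332 in ros1-1 and 362 in C24_WT, a log2 ratio of -0.13. UGT76E11 was at 447 in ros1-1 and 420 in C24_WT, a log2 ratio of 0.089. UGT76D1, which acts on dihydroxybenzoic acids formed from salicylate, passed the floor by little on 1 array, with 134 in ros1-1 and 105 in C24_WT, so its bound of 0.021 says little. UGT76E1, UGT76E2 and UGT76E12 were under the floor, and the median of the 5 measured UGT76 genes was -0.13.

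The UGT84A enzymes form glucose esters of hydroxycinnamic acids such as sinapate. UGT84A3 had 544 in ros1-1 and 520 in C24_WT, a log2 ratio of 0.066. Its neighbour UGT84A4 had 202 in ros1-1 and 257 in C24_WT, a log2 ratio of -0.35. The adjacent pair thus lay on opposite sides of 0, 0.41 apart, while the third gene of the row, UGT84A1, was under the floor. UGT84B1, an indole-3-acetic acid glucosyltransferase, and UGT84B2 were under the floor too.

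In the UGT71 subfamily, 4 of 9 genes were measured, with a median of -0.13. Of these 4, 3 were lower in ros1-1, or 75%, against 50.8% of all measured genes, too few to set them apart. UGT71B1 had 267 in ros1-1 and 329 in C24_WT, a log2 ratio of -0.30. UGT71C4 had 1065 in ros1-1 and 1194 in C24_WT, and UGT71C5, an abscisic acid glucosyltransferase, had 377 in ros1-1 and 402 in C24_WT, with log2 ratios of -0.17 and -0.096. UGT71C1 was nearly the same, at 193 in ros1-1 and 191 in C24_WT, a log2 ratio of 0.021. Only UGT71B1 lay beyond the probe set scatter, and a floor at the 60th percentile brought its log2 ratio to -0.019. UGT71B6, another enzyme that glucosylates abscisic acid, was under the floor, as were UGT71B5, UGT71B8, UGT71C2 and UGT71C3.

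Flavonoid and sterol glycosylation showed small differences. UGT78D2, the flavonoid 3-O-glucosyltransferase, had 938 in ros1-1 and 968 in C24_WT, a log2 ratio of -0.045. UGT78D1 and UGT78D3, which attach rhamnose and arabinose to flavonols, were under the floor. UGT80B1, a sterol glucosyltransferase, had 336 in ros1-1 and 368 in C24_WT, a log2 ratio of -0.13. SGT, which the gene table also names UGT80A2 and which is no member by name, was at 515 in ros1-1 and 543 in C24_WT, a log2 ratio of -0.077, so both sterol enzymes lay within the probe set scatter.

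The remaining UGT subfamilies had 1 or 2 measured genes each. UGT87A2, known for an effect on flowering time, had 1300 in ros1-1 and 969 in C24_WT, a log2 ratio of 0.42 and a rank of 355 from the top. UGT88A1 had 2140 in ros1-1 and 2775 in C24_WT, a log2 ratio of -0.37 and a rank of 587 from the bottom. Both are bright, and among the 1381 genes in the brightest quintile of those on both arrays the SD of log2 ratios was 0.23, so they stood 1.85 and 1.64 such SDs from 0. UGT85A2 had 341 in ros1-1 and 297 in C24_WT, a log2 ratio of 0.20, and UGT85A4 had 165 in ros1-1 and 179 in C24_WT, a log2 ratio of -0.12. UGT85A3, UGT85A5 and UGT85A7 were under the floor, UGT85A7 by the least of all 26, at 131 in ros1-1 and 96.5 in C24_WT.

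**Figure D3:**
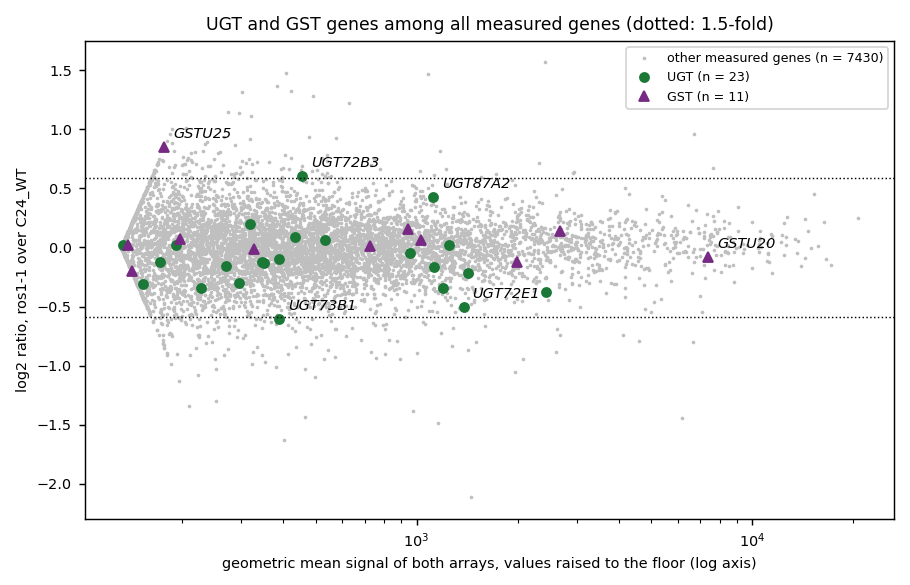
Log2 ratio of ros1-1 over C24_WT against the geometric mean signal of both arrays (log axis) for all 7464 measured genes, with 23 UGT genes as circles, 11 GST genes as triangles, 7430 other genes as grey points, and dotted lines at 1.5-fold. The GST genes other than GSTU25 lie between -0.20 and 0.16 over the whole signal range, and the edge at the left is set by the floor.

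Ratios of all genes spread more at low signal, so each member on both arrays was also set beside the genes of its own signal quintile. The SD of log2 ratios ran from 0.30 in the dimmest quintile to 0.23 in the brightest. All 9 GST genes on both arrays and 13 of the 22 UGT genes lay within 1 SD of their quintile, against 74.1% of all genes. GSTU25, the member with the largest difference, and GSTF4 reached the floor on 1 array only and are not among the 9. Beyond 2 SDs were 3 UGT genes, namely UGT72B3 at 2.21, UGT72E1 at 2.19 and UGT73B1 at 2.22, against 4.79% of all genes.

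Among the tau-class glutathione transferases, 9 of 11 were measured, with a median of 0.017. Of these 9, 6 were higher and 3 lower in ros1-1, so 33.3% were lower, against 50.8% of all measured genes. The count is too small to set them apart, and a floor at the 60th percentile put the median at -0.00068. GSTU25, a tau-class enzyme known to detoxify the explosive TNT, had a signal of 238 in ros1-1 and 115 in C24_WT. Because its C24_WT signal lies under the floor, the difference is a bound of at least 1.80-fold, a log2 ratio of 0.85 that is set by the floor. Its adjacent relative GSTU26 had 1052 in ros1-1 and 1007 in C24_WT, a log2 ratio of 0.064. A floor at the 25th percentile put the log2 ratio of GSTU25 at 1.05, and adding an offset instead of a floor put it at 0.581, just under 1.5-fold.

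GSTU20, which takes part in glucosinolate synthesis and interacts with a jasmonate-conjugating enzyme, had 7195 in ros1-1 and 7629 in C24_WT, a log2 ratio of -0.084. It heads a row of tandem relatives, of which GSTU22 had 325 in ros1-1 and 329 in C24_WT, and GSTU23 had 139 in ros1-1 and 137 in C24_WT. Their log2 ratios of -0.016 and 0.017 are next to 0, and that of GSTU22 turned to 0.0044 after centring on the median. GSTU21 of the same row was under the floor, at 28.4 in ros1-1 and 7.65 in C24_WT.

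The other tau-class genes lay within the probe set scatter as well. GSTU16 had 998 in ros1-1 and 895 in C24_WT, a log2 ratio of 0.16, while its relative GSTU15 was under the floor. GSTU27 had 1911 in ros1-1 and 2084 in C24_WT, a log2 ratio of -0.12. GSTU28 had 202 in ros1-1 and 192 in C24_WT, and GSTU18 had 733 in ros1-1 and 725 in C24_WT, with log2 ratios of 0.072 and 0.015. Thus 8 of the 9 measured GSTU genes were within 0.19 of 0, the exception being GSTU25, against 59.8% of all measured genes.

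The phi and lambda classes had 1 member each by the naming rule, so the values do not describe either class as a whole. GSTF4 had 126 in ros1-1, under the floor, and 152 in C24_WT, a bound of at least 1.15-fold lower in ros1-1. GSTL3, of the lambda class, had 2803 in ros1-1 and 2546 in C24_WT, a log2 ratio of 0.14. ATGSTF13, a phi-class gene whose symbol the naming rule does not take, was under the floor at 59.5 in ros1-1 and 57.0 in C24_WT.

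Members were often neighbours in the genome. Counting members with at most 4 other protein-coding genes between them, 40 of the 60 fell into 16 groups, of which 5 held at least 2 measured genes. In 3 of these 5 groups all measured genes lay on 1 side of 0: UGT71C4 and UGT71C5 were lower in ros1-1, as were UGT76C1 and UGT76C2, and GSTU25 and GSTU26 were higher. The UGT84A group and the group that runs from UGT85A4 to GSTU20 held both directions. Of all measured genes 50.8% were lower in ros1-1, and most of the 5 groups held only 2 measured genes. The count is therefore too small to say that neighbours shared a direction. Within a group the measured log2 ratios differed by 0.070 in the UGT71C group and by 0.16 in the UGT76C group. They differed by 0.14 in the group from UGT85A4 to GSTU20 and by 0.41 in the UGT84A group. The log2 ratio of GSTU25 is a bound, and its distance from GSTU26, at least 0.79, moves with the floor. Closely related neighbours can share signal between their probe sets, and how far this was so here was not tested. All 60 probe sets carried the plain suffix of a set designed for a single transcript.

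**Figure D4:**
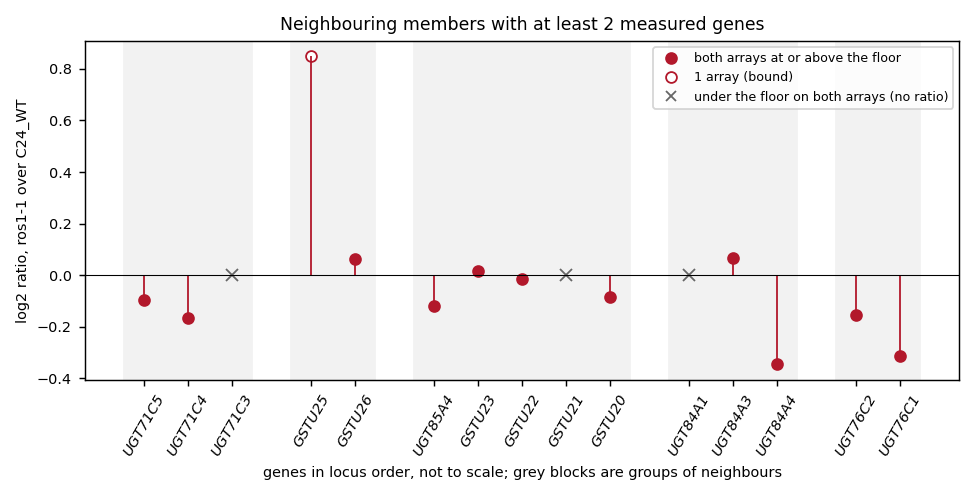
Log2 ratio of ros1-1 over C24_WT for the 5 groups of neighbouring members with at least 2 measured genes, in locus order and not to scale. Filled circles reached the floor on both arrays, the open circle on 1, and crosses mark genes under the floor with no ratio. GSTU25, a bound, is at 0.85 and its neighbour GSTU26 at 0.064.

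Under the floor on both arrays were 24 of 47 UGT genes, or 51.1%, and 2 of 13 GST genes, or 15.4%, against 44.1% of all 13356 genes. Their deposited signals ran from 2.50 to 131 in ros1-1 and from 3.86 to 112 in C24_WT for the UGT genes, and from 28.4 to 40.8 in ros1-1 and from 7.65 to 76.2 in C24_WT for the GST genes. A signal under the floor says that these arrays did not measure the gene, not that it was silent. By subfamily they were 6 of 7 UGT73, 5 of 9 UGT71, 3 of 5 UGT84, 3 of 5 UGT85 and 3 of 8 UGT76 genes. The rest were 2 of 3 UGT78, 1 of 4 UGT72, 1 of 3 UGT74 and 2 of 11 GSTU genes.

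Partner genes of conjugation were thinly covered by name. In the list for glutathione supply and turnover, 2 of 10 genes had a named probe set, both for glutathione reductase, which regenerates glutathione, and neither was 1.5-fold different. GR1 had 3020 in ros1-1 and 2623 in C24_WT, a log2 ratio of 0.20, and GR, which the gene table also lists as ATGR2, had 3507 in ros1-1 and 3311 in C24_WT, a log2 ratio of 0.083. In the flavonoid and anthocyanin list, 2 of 12 symbols, CHI and DFR, matched a measured gene, with 0 at least 1.5-fold different. The match was by symbol alone. Whether the gene named CHI here is chalcone isomerase was not checked, so it is not read as a pathway gene. It had 3041 in ros1-1 and 2237 in C24_WT, a log2 ratio of 0.44. DFR, dihydroflavonol reductase of the anthocyanin branch, had 416 in ros1-1 and 496 in C24_WT, a log2 ratio of -0.25. Another measured gene tied to this branch, UF3GT, which the gene table also names UGT79B1, had 241 in ros1-1 and 240.0 in C24_WT.

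Beta-glucosidases, which remove glucose from many such conjugates, were taken by a symbol of BGLU and a digit only. Of 20 such genes 11 were measured, with a median of 0.15, against -0.0051 over all measured genes. At least 1.5-fold higher were 0 and lower 1, against 1.74% and 1.96% of all measured genes, counts too small to set them apart. The lower one was BGLU19, at 154 in ros1-1 and 289 in C24_WT, a log2 ratio of -0.91. The lists for DHAR and TCHQD relatives of glutathione transferases, vacuolar ABC transporters, UDP-sugar supply, regulators of the xenobiotic response and glucosinolate synthesis had 0 genes with a named probe set and were not analysed here.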

How the data were processed

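Total RNA of 1 ros1-1 and 1 C24_WT sample was hybridised to Affymetrix arrays. For each probe set the authors deposited a linear signal intensity, and the submitters' processing notes name MAS5 for this step. The sources used here give no version, scaling target or detection call. Both arrays had a mean of 500.04 once 2% of values were trimmed at each end, so they share a scale. Of 22810 probe sets, 64 controls were set aside, and 13513 of the other 22746 named 1 gene. Gene names are those of the platform annotation, and the TAIR10.1 gene table was used for other names and gene order; it held 60 of 60 members. The probe set with the highest mean log2 signal stood for its gene. Ratios, floor and size rule are given with the results, and the array number limits the precision. No sequence was printed, since no sequence table was used here.

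Named members were those at least 1.5-fold different, the 3 largest ratios in each direction per family among members at the floor on both arrays, the brightest of each subfamily, members with a known role and, by name, members under the floor. UGT71B1, UGT71C1, UGT71C5, UGT85A4, GSTU18, GSTU23 and GSTU26, the genes outside the symbol rule and the probe set shared by UGT73B2 and UGT73B3 were added after their values were seen. The rule for members uses no signal, but it and the gene lists were chosen with earlier results of these data known. The settings varied were the floor (25th or 60th percentile), median centring, quantile normalization, a lowess trend with span 0.3 removed, an offset instead of a floor, averaging all probe sets of a gene, plain probe sets only, and thresholds of 1.3-fold and 2-fold. Python 3.11.15, pandas 2.3.3, numpy 2.4.6 and statsmodels 0.14.6 were used, and the steps were tested on simulated data.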

Additional observations from a re-analysis of the deposited data

How the results depend on the processing

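The medians of the families moved little. That of the UGT genes ran from -0.14 under the floor of the 25th percentile to -0.091 with an offset instead of a floor, and that of the GST genes from 0.013 with the offset to 0.039 after quantile normalization. Adding the genes that the gene table names UGT or GST, an alternative chosen after seeing the data, gave -0.12 and 0.017, and keeping only members at the floor on both arrays, also chosen then, gave -0.13 and 0.017. Counts of members past a size are small and moved. UGT genes at least 1.5-fold higher numbered 1 as reported and 0 with the offset, with 2 at 1.3-fold and 0 at 2-fold. UGT genes at least 1.5-fold lower numbered 1 as reported, 3 under the floor of the 25th percentile, and 0 under that of the 60th, after median centring, quantile normalization or removal of the trend, and with the offset; they were 2 at 1.3-fold and 0 at 2-fold. GST genes at least 1.5-fold higher numbered 1 as reported and 0 under the floor of the 60th percentile or under the offset. At 2-fold they numbered 0 with the floor of 132, where GSTU25 has only a bound. GST genes at least 1.5-fold lower numbered 0 under every alternative run. A higher floor and the offset shrink ratios of dim genes by construction, and the lower floor brings in genes dimmer than 132. Of the 34 measured members, 1, GSTU22, changed sign under the 3 rescalings. Of those with a value, 0 changed sign under the other settings, where the floor of the 60th percentile left 24, and rescaling moved no member by more than 0.058. Averaging the probe sets of a gene or taking plain probe sets only moved no member, since each has 1 plain probe set. With 1 array per genotype, no replicate could be left out. No paired analysis was possible because each genotype has 1 array.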
